A study of Homo sapiens with 9 samples.

Results

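The early response of human embryonic stem cells to doxorubicin was read from 6 of the 9 arrays of a series on p53 in these cells. The 3 damage arrays hold cells of the WA09 line given DOX, the anthracycline doxorubicin, for 5 h, at a dose the labels do not state. The 3 pluripotent arrays hold untreated cells of the same line, and no gene was altered in either group. The remaining 3 arrays hold WA09 cells under retinoic acid (1 µM, 2 days) in medium lacking the FGF supplement. They entered the fit as a further group and are used below in a few direct comparisons. WA09 is an established pluripotent line. The protocols describe cultures on irradiated mouse embryonic fibroblasts and feeder-free cultures, and do not tie an array to either. The labels do not say whether arrays within a group come from separate cultures. The p-values thus rest on array-to-array spread alone, which may be technical. All probe sets that name exactly 1 gene were used, which gave 19777 genes after 1 probe set was kept for each.

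Doxorubicin traps topoisomerase II on DNA and leaves double-strand breaks. The kinases that sense breaks stabilise p53, a transcription factor that is held low by the ubiquitin ligase MDM2 in unstressed cells. Its targets slow the cell cycle, change metabolism, serve DNA repair and can start apoptosis. Through its target p21, p53 also sets the DREAM repressor complex on promoters of cell cycle genes. Human embryonic stem cells have a short G1 phase and are known to die readily after DNA damage. Stress also sets off a second early wave, in which kinase cascades and factors already present in the cell switch on genes such as FOS, JUN and EGR1 without new protein synthesis.

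Every level below is an RMA-normalised log2 intensity, where 1 unit is a doubling. Every change is the mean of the 3 treated arrays minus the mean of the 3 untreated arrays on that scale, printed with its standard error (SE) from limma. Adjusted p-values come from limma with Benjamini-Hochberg adjustment across the 19777 genes. Genes were named by a rule given with the processing, and further members of the lists, chosen after their values were seen, are named as examples. A gene is said to have risen, fallen or changed only where its adjusted p is under 0.05. Intensity depends on the probes, so levels of different genes are not compared. Array medians over all probe sets ran from 4.62 to 4.68, referred to below as the median probe set. No background measure was used, so a gene near or under that level may be at background, and a fold change against it may understate the true one.

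Arrays of the same group correlated at 0.9959 to 0.998 over all genes, and no pair held identical values. The third untreated array carried a lower limma array weight (0.512) than the first (1.52) and the second (1.59). Of 10 measured defining markers of pluripotent stem cells, all 10 lay above the median probe set, at mean untreated levels of 10.27 to 13.35. Their summed log2 level was 121.1 to 122.0 on untreated and 119.6 to 120.6 on treated arrays, and SOX2 was the member that fell. Markers of other cells moved little, with exceptions that recur below. Fibroblast markers summed to 72.9 to 73.7 and then 74.4 to 75.3 (2 of 12 higher, 1 lower). Trophoblast and amnion markers summed to 41.1 to 41.2 and then 44.2 to 46.1 (3 of 9 higher, 0 lower). Endoderm markers summed to 35.5 to 36.6 and then 38.8 to 39.0 (2 of 8 higher, 0 lower). None of 8 mesoderm and none of 8 neuron markers passed limma's test (1 and 2 at an unadjusted p under 0.05), and 1 of 8 endothelial markers fell. The endoderm marker SOX17 and the trophoblast markers CGA and VTCN1 lay under the median probe set on all 6 arrays.

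After 5 h the response was lopsided: fewer genes rose than fell, but the genes that rose moved much farther. In all, 1121 genes rose (5.67% of those tested) and 1898 fell (9.60%), together 15.3%. At 2-fold or more, 246 rose (1.24%) and 56 fell (0.283%). Among risen genes, 506 changed by less than 0.5 on the log2 scale, 369 by 0.5 to 1, 192 by 1 to 2, 38 by 2 to 3 and 16 by more than 3. Among fallen genes, 1236 changed by less than 0.5, 606 by 0.5 to 1, 55 by 1 to 2 and 1 by more than 2. The treated and untreated arrays did not overlap for 5720 genes (28.9%). The number of fallen genes depended on the untreated arrays. It was 1183 without the first one and 1129 without the second. The number of risen genes stayed between 871 and 1143 when any of the 6 arrays was left out.

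**Figure D1:**
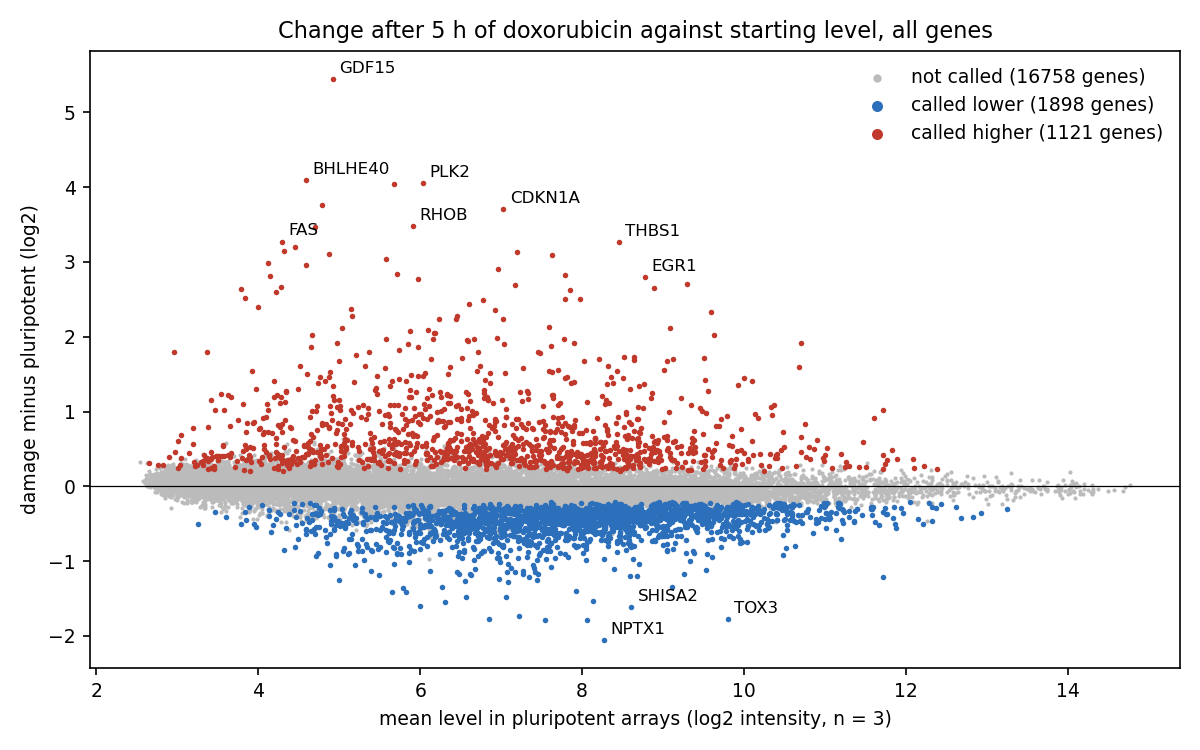
Change after 5 h of doxorubicin (log2, treated minus untreated) against the mean untreated level (log2 intensity, 3 arrays), 1 point per gene, with the 1121 called higher in red, the 1898 called lower in blue and all others in grey. Red points reach above 5 and blue points stop near −2, and few blue points lie at low levels.

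How far a gene could be seen to fall was tied to its starting level. Genes were divided into 5 equal groups by their mean untreated level. The share that fell was 0.152% in the lowest group (median level 3.37), 2.02% in the next, 9.23% in the middle, then 18.9% and 17.7% in the 2 highest. The share that rose varied less, from 1.74% in the lowest group to 8.29% in the fourth. Of the 246 genes that rose at least 2-fold, 36 (14.6%) started below the median probe set, and of the 56 that fell at least 2-fold, 0 did. Over all genes 33.1% started there. These groups were formed from the same untreated arrays as the changes, so the shares are a description.

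In the lists that follow, a count of 0 in one direction was also 0 at limma's unadjusted p under 0.05, except for 1 gene each in the cytokine list (lower), the kinetochore list and the cohesin and condensin list (both higher). The lists were not matched by level. Over all genes 5.67% rose and 9.60% fell, and 18.9% and 17.7% fell in the 2 groups of highest untreated level. Targets of p53 that slow the cell cycle held some of the strongest changes. Of 12 measured, 10 rose and 0 fell, and their median change was 1.94, beside −0.005 for all genes. PLK2, a kinase induced by stress, lay at 6.27, 6.00 and 5.83 on the untreated arrays and at 9.99, 10.23 and 10.04 on the treated arrays. Its lowest treated array stood far above its highest untreated one (4.06 ± 0.11, adjusted p = 4.39e-09). CDKN1A, which encodes the kinase inhibitor p21, lay at 7.06, 7.24 and 6.79 on the untreated arrays and at 10.89, 10.76 and 10.56 on the treated arrays (3.71 ± 0.12, adjusted p = 1.55e-08). SFN, which encodes the cell cycle inhibitor 14-3-3 sigma, lay at 7.62, 7.65 and 8.29 on the untreated arrays and at 10.40, 10.37 and 10.66 on the treated arrays. The third untreated array was the highest of its group, and the groups did not overlap (2.62 ± 0.16, adjusted p = 1.46e-06, with 3 of 3 probe sets higher). GADD45A, a growth arrest and repair factor, rose by 2.50, and ZMAT3, an RNA-binding p53 target, by 2.50 on the log2 scale. All 5 probe sets of ZMAT3 were higher. PHLDA3, an inhibitor of AKT, rose by 1.90 and the sestrin gene SESN1 by 1.97. The cyclin gene CCNG1 moved much less (0.27), while PLK3 (0.28) and RPRM (−0.26) were not called. CCNG1 lost its call without the first untreated array (0.26), without the first treated array (0.26) and without the second treated array (0.26).

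**Figure D2:**
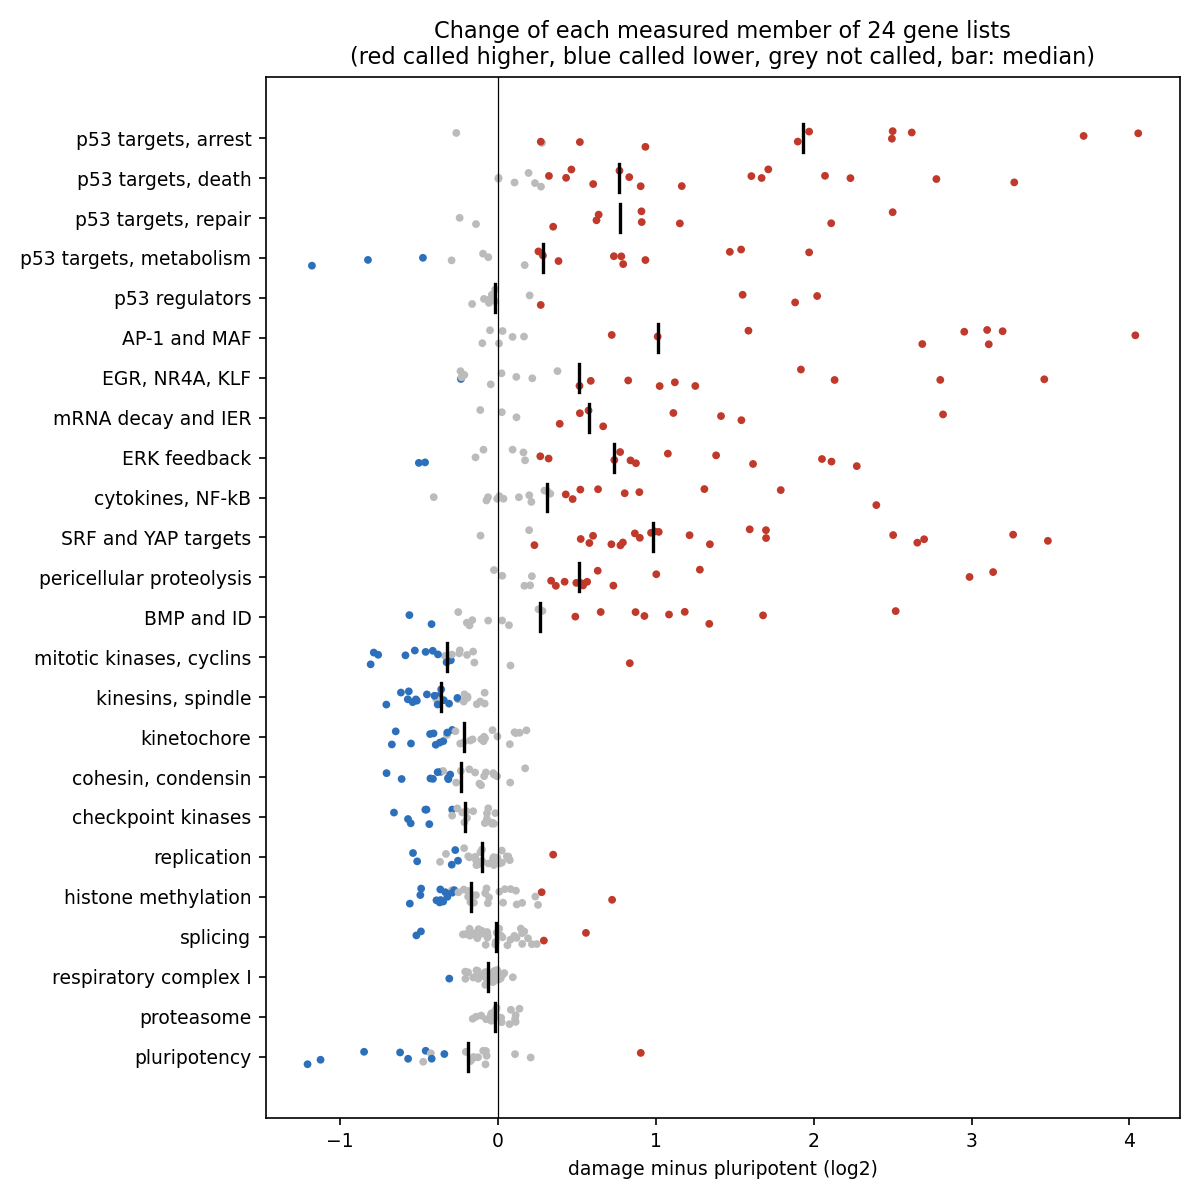
Log2 change (treated minus untreated) of each measured member of 24 gene lists, 1 point per gene, red where it rose, blue where it fell and grey where it was not called, with the list's median as a black bar. The p53 arrest list has the highest median (1.94), and the kinesin and spindle list the lowest (−0.36).

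Most p53 targets in cell death rose, with receptors of death ligands among the largest changes. Of 21 measured targets in cell death, 15 rose and 0 fell, with a median change of 0.77. FAS, the receptor of FAS ligand, lay at 4.51, 4.35 and 4.04 on the untreated arrays and at 7.50, 7.58 and 7.63 on the treated arrays. Its untreated level was near the median probe set, and its treated level stood clear of it (3.27 ± 0.11, adjusted p = 2.32e-08, 5 of 5 probe sets higher). TNFRSF10A, a receptor of the death ligand TRAIL, lay at 6.08, 5.84 and 6.01 on the untreated arrays and at 8.87, 8.74 and 8.65 on the treated arrays (2.78 ± 0.09, adjusted p = 2.16e-08, 3 of 3 probe sets higher). The other receptors of TRAIL rose too: TNFRSF10B by 1.67, and the decoys TNFRSF10D by 1.71 and TNFRSF10C by 0.83. DRAM1, a lysosomal protein of autophagy, rose by 2.23 and IKBIP by 2.07. In the mitochondrial pathway APAF1, the core of the apoptosome, rose by 1.16, while the pore-forming proteins BAK1 and BAX rose by 0.46 and 0.32. PMAIP1, which encodes the BH3-only protein NOXA, was at 0.19 and BID at 0.23, neither called. In the BCL2 family at large, 4 of 17 measured members rose and 1 fell. The survival gene MCL1 rose by 0.65 with 6 of 6 probe sets, and BCL2L2, another survival gene, fell by 0.49. Of 14 caspase and apoptosome genes 2 rose and 1 fell, with CASP10 at 0.66 and CASP9 at −0.53. BAX lost its call without the first untreated array (0.33), without the second untreated array (0.34), without the third untreated array (0.29), without the first treated array (0.26) and without the second treated array (0.32). BCL2L2 lost its call with the mean of all probe sets (−0.34) and without the second untreated array (−0.46). CASP9 lost its call without probe sets of suffix x_at or s_at (−0.10), without the first treated array (−0.45) and without the second treated array (−0.50). TNFRSF10C (0.17) lost its call without probe sets of suffix x_at or s_at. CASP10 (0.20) lost its call with the mean of all probe sets. In the probe set checks the log2 change was as small as 0.31 for FAS, 1.11 for TNFRSF10B, 1.03 for TNFRSF10D, 1.36 for IKBIP and 0.48 for APAF1. The weakest single probe set was at 0.75 for IKBIP (3 of 3 called higher) and 0.13 for APAF1 (1 of 3).

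Most p53 targets in repair and nucleotide supply rose. Of 10 measured p53 targets in this list, 8 rose and 0 fell (median 0.77). POLH, the polymerase that copies past bulky lesions, rose by 2.11, and DDB2 and XPC, which recognise damage in nucleotide excision repair, by 1.15 and 0.64. RPS27L and TRIAP1, both small stress proteins, each rose by 0.91, and RRM2B, a subunit of ribonucleotide reductase, by 0.62. Targets in metabolism split. Of 17 measured, 10 rose and 3 fell. TRIM22 rose by 1.54 and TIGAR, which lowers glycolytic flux, by 1.47, and SESN2 by 0.93. LPIN1, a phosphatidate phosphatase that is also induced by p53 in other cells, went the other way. It lay at 6.79, 6.67 and 6.43 on the untreated arrays and at 5.38, 5.60 and 5.37 on the treated arrays (−1.18 ± 0.10, adjusted p = 3e-05). DDIT4, an inhibitor of mTORC1, fell by 0.82, and SCO2, an assembly factor of cytochrome oxidase, by 0.48. The probe set checks gave log2 changes down to 0.98 for POLH and −0.67 for LPIN1.

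Some regulators of p53 rose, and most did not pass the test. Of 12 measured, 4 rose and 0 fell, and the median change was −0.02. MDM2 rose by 2.02 with 7 of its 10 probe sets called. TP53INP1, a cofactor of the p53 kinase HIPK2, rose by 1.88, and PPM1D, the phosphatase WIP1 that turns off damage signalling, by 1.55. The regulators MDM4 (0.20), COP1 (−0.09), USP7 (−0.02), HIPK2 (−0.06) and the kinase gene ATM (−0.02) were not called. A p53 core pattern was looked for on both strands in promoter sequences of RefSeq (GRCh38.p14). Each promoter was 300 bases long, from 250 before to 50 after the start. This core fixes a short block of letters at each end, leaves the bases between free and is looser than the full p53 site. It was present in 7 of 857 risen genes with a promoter (0.817%), beside 0.267% of 15382 tested genes and 0.392% of all 27305 promoters. The 1 called p53 target of these lists with that core in its 300-base window was TRIAP1 (TRIAP1 at chr12:120446335-120446364 (minus strand)). Its match, in capitals, begins 31 bases after the start, within transcribed sequence. It is shown because the gene rose on all 3 treated arrays.
TRIAP1: tgtgggggaggCATGCACGGACATGaagcg
ATR, a checkpoint kinase gene that fell by 0.57, held such a core as well, from 28 bases after its start. The match is thus a description of letters in these windows. p53 binds many of its targets outside them. The smallest log2 change in the probe set checks was 1.29 for MDM2, 0.68 for TP53INP1 and −0.28 for ATR. The weakest single probe set of ATR was at 0.002 (1 of 3 called lower).

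**Figure D3:**
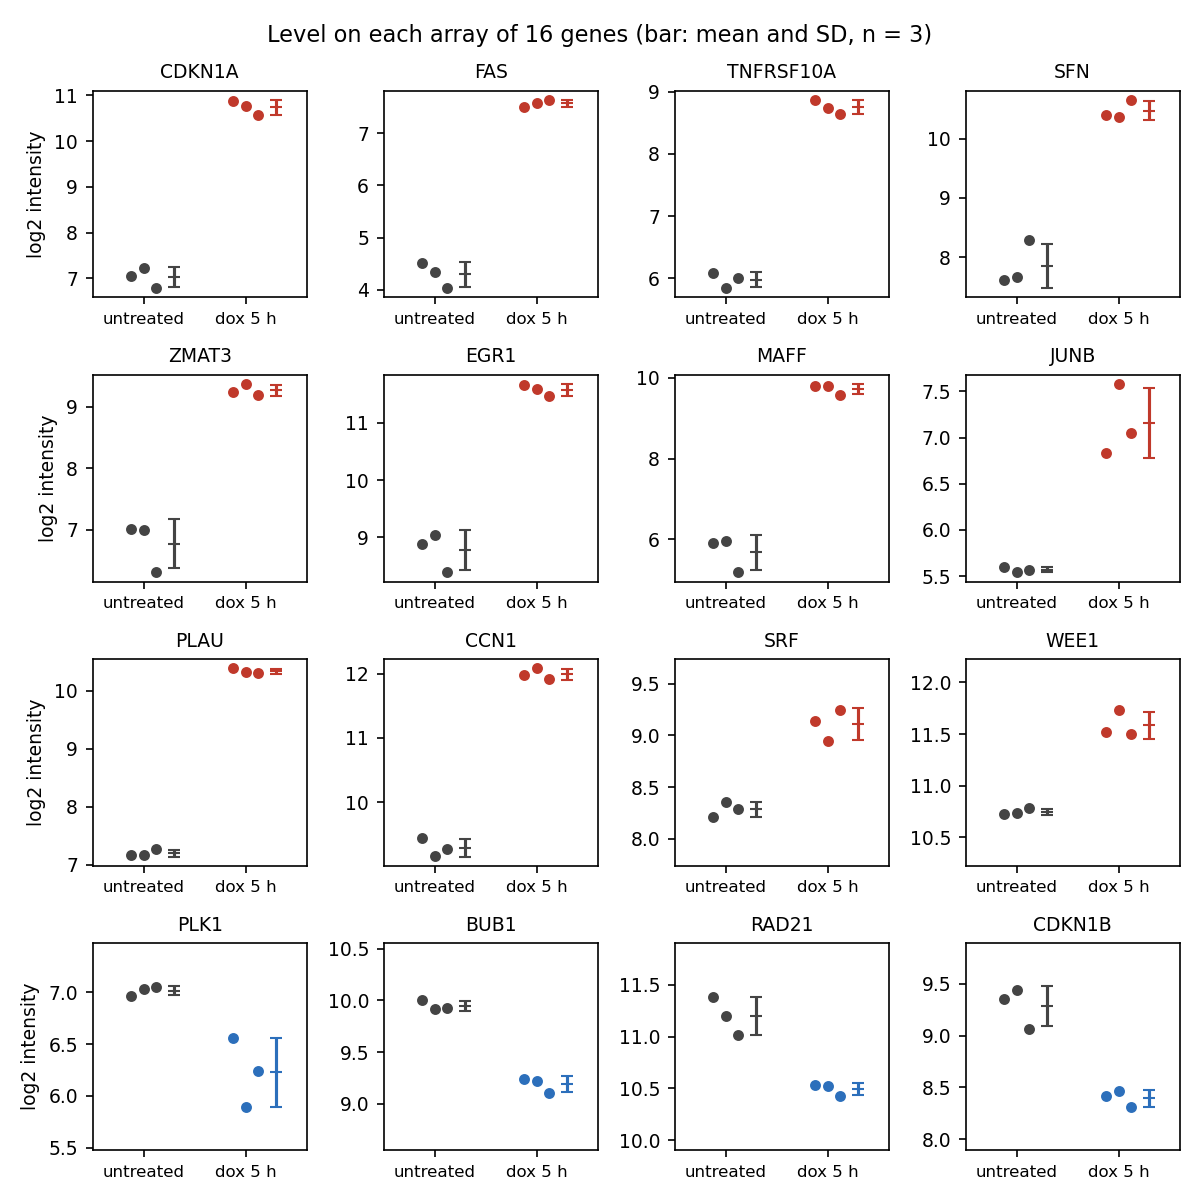
Log2 intensity on each array of 16 genes, untreated in black and treated with doxorubicin for 5 h in red (called higher) or blue (called lower), with the mean and SD of 3 arrays as a bar beside the points. Each panel has its own vertical scale of at least 2 units, and no panel has overlapping groups.

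Many immediate-early genes were higher at 5 h. Among AP-1, ATF3 and MAF factors, which bind DNA as leucine-zipper dimers, 9 of 15 measured rose and 0 fell (median 1.01). MAFF, a small MAF protein that lacks an activation domain, lay at 5.90, 5.96 and 5.18 on the untreated arrays and at 9.79, 9.78 and 9.58 on the treated arrays (4.04 ± 0.19, adjusted p = 1.74e-07, 2 of 2 probe sets higher). The third untreated array was lower than the other two, and no treated array came near the untreated range. FOS lay at 4.71, 4.54 and 4.13 on the untreated arrays and at 7.67, 7.58 and 7.71 on the treated arrays (3.20 ± 0.15, adjusted p = 1.74e-07). JUN rose by 3.10, with 4 of 4 probe sets higher, and FOSL1 by 3.11. FOSL2 rose by 2.95 and the stress repressor ATF3 by 2.69. JUNB varied more between treated arrays, at 5.60, 5.54 and 5.57 on the untreated arrays and at 6.84, 7.58 and 7.05 on the treated arrays (1.59 ± 0.15, adjusted p = 4.43e-05). The BATF genes (BATF −0.10, BATF2 −0.05, BATF3 0.09), JDP2 (0.01) and MAF (0.03) were not called. In the probe set checks the log2 change was as small as 0.74 for JUN, 1.54 for FOSL2 and 1.35 for ATF3. The weakest single probe set was at 0.24 for FOSL2 (3 of 5 called higher) and −0.08 for ATF3 (2 of 3).

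Of 19 measured EGR, NR4A and KLF factors, 10 rose and 1 fell (median 0.52). EGR3 lay at 4.80, 4.80 and 4.50 on the untreated arrays and at 7.94, 8.23 and 8.31 on the treated arrays (3.46 ± 0.13, adjusted p = 4.31e-08). EGR1 lay at 8.89, 9.05 and 8.39 on the untreated arrays and at 11.67, 11.59 and 11.47 on the treated arrays (2.80 ± 0.16, adjusted p = 7.39e-07, 3 of 3 probe sets higher). All treated arrays of both genes stood above all untreated ones. Among Krüppel-like factors KLF6 rose by 2.13, KLF10, which is induced by TGF-beta, by 1.92, and KLF7 by 1.25. KLF4, a factor used to reprogram cells, was at 0.02 and KLF2 at 0.12, neither called. The nuclear receptor NR4A1 rose by 0.52, while NR4A2 (0.38) and NR4A3 (0.22) were not called. NR4A1 lost its call without probe sets of suffix x_at or s_at (0.17), without the first treated array (0.46) and without the third treated array (0.44).

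Most genes that limit ERK signalling, and most early-response and mRNA decay genes, rose. Among phosphatases and adaptors that limit the kinase ERK, 12 of 19 measured rose and 2 fell (median 0.74). DUSP5, a nuclear ERK phosphatase, lay at 6.47, 6.47 and 6.43 on the untreated arrays and at 8.76, 8.67 and 8.76 on the treated arrays (2.27 ± 0.07, adjusted p = 1.76e-08). PHLDA1 rose by 2.11 with 6 of 6 probe sets, DUSP2 by 2.05, DUSP1 by 1.62 and DUSP6, the cytoplasmic ERK phosphatase, by 1.38 with 3 of 3. The Sprouty genes parted: SPRY4 rose by 0.87 and SPRY2 by 0.74, while SPRY1 fell by 0.50. Of 11 early-response and mRNA decay genes 8 rose and 0 fell (median 0.57). IER3 rose by 2.82, IER5 by 1.54 and IER2 by 1.41. ZFP36, which binds AU-rich elements of short-lived mRNAs and speeds their decay, rose by 1.11. SPRY1 (−0.27) lost its call with the mean of all probe sets. The probe set checks gave log2 changes down to 0.60 for DUSP1, whose weakest single probe set was at 0.06 (1 of 3 called higher).

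The cyclic AMP response element (CRE, the letters TGACGTCA, a palindrome) was present in the promoters of 3 of 13 AP-1 and MAF genes (23.1%), against 2.67% of tested genes and 1.98% of all promoters. Of that list's 3 genes with the element 2 rose and MAF was not called, and of the 10 without it 6 rose. Among genes that limit ERK, DUSP8 also held the element and was not called. Sequences are shown for risen genes only: MAFF and JUND of that list, the ERK phosphatase gene DUSP1 and the p53 phosphatase gene PPM1D (4.04, 1.01, 1.62 and 1.55). Each line holds 60 bases, 5′ to 3′ on the gene's strand, with the element in capitals. The windows are MAFF at chr22:38201914-38201973 (plus strand), JUND at chr19:18281789-18281848 (minus strand), DUSP1 at chr5:172771287-172771346 (minus strand) and PPM1D at chr17:60600106-60600165 (plus strand).
MAFF: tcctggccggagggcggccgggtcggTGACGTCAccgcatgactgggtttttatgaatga
JUND: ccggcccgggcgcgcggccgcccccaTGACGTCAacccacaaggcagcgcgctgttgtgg
DUSP1: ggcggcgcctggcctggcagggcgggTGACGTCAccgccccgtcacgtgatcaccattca
PPM1D: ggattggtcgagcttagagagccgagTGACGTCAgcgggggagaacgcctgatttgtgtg
The element was also present in 2 of 14 mitotic kinase, 3 of 23 kinetochore and 3 of 29 replication promoters, and of 7 mitosis genes that hold it 4 fell and 0 rose. Over all 410 tested genes with the element 7.80% rose and 10.7% fell, beside 5.57% and 10.3% of the 15382 genes with a promoter. Above the median untreated level the share that rose was 7.51%, beside 7.19%. The smallest log2 change in the probe set checks was 0.41 for JUND.

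A nearly complete rise was seen in genes of the actin cytoskeleton and targets of SRF and YAP, a pair of pathways that read actin and cell tension. Of 24 measured, 22 rose and 0 fell, with a median change of 0.98. CCN1, a secreted matrix-associated protein and YAP target, lay at 9.43, 9.16 and 9.28 on the untreated arrays and at 11.98, 12.08 and 11.91 on the treated arrays (2.70 ± 0.10, adjusted p = 5.48e-08, 2 of 2 probe sets higher). CCN2, its relative, rose by 2.66. CNN1, which encodes calponin of smooth muscle, lay at 7.79, 7.74 and 7.82 on the untreated arrays and at 10.27, 10.28 and 10.31 on the treated arrays (2.50 ± 0.09, adjusted p = 4.31e-08). RHOB, a small GTPase of actin signalling, rose by 3.48 on 1 of its 5 probe sets, and the matrix glycoprotein gene THBS1 by 3.26 on 3 of 7. SRF itself lay at 8.21, 8.35 and 8.29 on the untreated arrays and at 9.14, 8.95 and 9.25 on the treated arrays (0.82 ± 0.09, adjusted p = 0.000121). The adhesion genes VCL and ZYX rose by 1.02 and 0.87, and the feedback genes of the Hippo pathway AMOTL2 and LATS2 by 1.70 and 0.72. TEAD1, the DNA-binding partner of YAP, was at −0.11 and not called. Without probe sets of suffix x_at or s_at, 17 of these genes were left to measure and 14 rose. Fibroblasts and stromal cells express many of these genes. The fibroblast markers of the set fixed for that purpose gave 2 of 12 higher (COL1A1 at 1.08 and THY1 at 0.33) and 1 lower (PDGFRA at −0.42), while DCN (0.16) and LUM (0.07) were not called. Whether other cells in the culture took part was not tested, and in bulk RNA fewer cells of a type and less RNA per cell cannot be told apart. THY1 lost its call without the first untreated array (0.33), without the second untreated array (0.33), without the third untreated array (0.33), without the first treated array (0.29), without the second treated array (0.36) and without the third treated array (0.33). THBS1 (0.41) lost its call without probe sets of suffix x_at or s_at. PDGFRA (−0.07) lost its call with the mean of all probe sets. In the probe set checks the log2 change was as small as 0.80 for RHOB, 0.55 for VCL, 0.32 for LATS2 and 0.61 for COL1A1. The weakest single probe set of COL1A1 was at 0.04 (3 of 5 called higher).

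The CArG box, the site bound by SRF, was present in the promoters of 4 of 18 genes of this list (22.2%), against 1.21% of all tested genes. The list was drawn up to include SRF targets, so its share is a description and no test of the site. Among genes that rose at least 2-fold it was present in 10 of 181 (5.52%), among fallen genes in 14 of 1578 (0.887%), and in the whole promoter table in 1.29%. The promoters of EGR1 and SRF each carry 2 matches within 60 bases. They are shown with those of ACTG2, CNN2, FHL2 and TPM4, the list members with the box, with every match in capitals. The windows are EGR1 at chr5:138465349-138465408 (plus strand), SRF at chr6:43171214-43171273 (plus strand), ACTG2 at chr2:73892873-73892932 (plus strand), CNN2 at chr19:1026494-1026553 (plus strand), FHL2 at chr2:105438580-105438639 (minus strand) and TPM4 at chr19:16067340-16067399 (plus strand).
EGR1: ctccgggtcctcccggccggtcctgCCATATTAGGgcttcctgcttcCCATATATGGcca
SRF: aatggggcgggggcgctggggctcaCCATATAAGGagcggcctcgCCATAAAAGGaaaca
ACTG2: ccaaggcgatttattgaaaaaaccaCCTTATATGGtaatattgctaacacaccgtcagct
CNN2: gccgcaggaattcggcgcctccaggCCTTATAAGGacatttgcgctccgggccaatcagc
FHL2: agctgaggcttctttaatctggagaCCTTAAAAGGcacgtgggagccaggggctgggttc
TPM4: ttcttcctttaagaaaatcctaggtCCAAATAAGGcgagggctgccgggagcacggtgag
All 6 genes rose: EGR1 by 2.80, FHL2, a LIM-domain cofactor, by 1.34, the smooth muscle actin gene ACTG2 by 1.21, SRF by 0.82, the calponin gene CNN2 by 0.58 and the tropomyosin gene TPM4 by 0.52. In the list as a whole 22 of 24 measured genes rose, so a rise does not set its members with the box apart. Over all 186 tested genes with the box 21 rose (11.3%, beside 5.57% of genes with a promoter), and 14 fell (7.53%, beside 10.3%), so most genes with these letters were not called higher. The probe set checks gave log2 changes down to 0.62 for ACTG2.

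Secreted factors and proteases made up a further set of large changes. Of 18 measured genes of pericellular proteolysis 13 rose and 0 fell (median 0.51). PLAU, the urokinase that activates plasminogen, lay at 7.17, 7.16 and 7.26 on the untreated arrays and at 10.38, 10.32 and 10.30 on the treated arrays (3.14 ± 0.08, adjusted p = 3.08e-09, 2 of 2 probe sets higher). The 3 treated arrays lay within a narrow range. PLAT, the tissue activator of plasminogen, rose by 2.99, and PLAUR, the urokinase receptor, by 0.63. TIMP1 and TIMP3, inhibitors of matrix proteases, rose by 0.54 and 0.53. MMP1 (0.17) and MMP14 (0.21) were not called. Of 19 ligands and antagonists of the TGF-beta superfamily 5 rose and 1 fell. GDF15, a stress hormone, lay at 4.82, 4.95 and 5.00 on the untreated arrays and at 10.30, 10.26 and 10.55 on the treated arrays, the largest rise of all genes tested (5.45 ± 0.09, adjusted p = 1.06e-10), on 1 of its 3 probe sets. INHBA, the activin A subunit, rose by 3.15, and CER1, an antagonist of NODAL that is also a marker of endoderm, by 1.97. The endoderm factors SOX17 (0.14) and FOXA2 (0.12) were not called. Of 21 cytokine and NF-kB genes 9 rose and 0 fell (median 0.31). IL1A rose by 2.40 and LIF by 1.79, whereas CXCL8 (0.29), IL6 (0.31) and TNF (0.21) were not called. The peptide hormone genes NPPB and ADM rose by 3.76 and 2.33. PLAUR (0.07), GDF15 (0.11) and IL1A (0.12) lost their call without probe sets of suffix x_at or s_at. The smallest log2 change in the probe set checks was 2.00 for INHBA, whose weakest single probe set was at 0.11 (2 of 3 called higher).

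In the BMP list, rises included the antagonist GREM1 and 3 ID genes, and a pair of receptor genes fell. Of 20 measured 9 rose and 2 fell (median 0.27). GREM1, a secreted BMP antagonist, lay at 4.01, 4.01 and 3.50 on the untreated arrays and at 6.11, 6.72 and 6.25 on the treated arrays (2.52 ± 0.18, adjusted p = 5.24e-06), with untreated arrays below the median probe set. ID4, ID2 and ID3, which block basic helix-loop-helix factors, rose by 1.68, 1.18 and 1.08. SMAD7, the inhibitory SMAD, rose by 0.93. The receptor genes ACVR2A and ACVR1 fell by 0.56 and 0.42, and the ligands BMP4 (−0.31) and BMP2 (−0.10) were not called. GATA3 (1.34), also a marker of amnion and trophoblast, rose on 1 of its 3 probe sets. It was among 3 of 9 such markers that rose, with IGFBP3 (1.11, 2 of 2 probe sets higher) and TFAP2A (0.85). In the probe set checks TFAP2A was as low as 0.32. The markers CGA (0.08), KRT7 (−0.03) and VTCN1 (0.00) were not called. ACVR1 lost its call in a fit of the 2 groups alone (−0.42), without the first untreated array (−0.30), without the second untreated array (−0.41), without the second treated array (−0.42) and without the third treated array (−0.41). GATA3 (0.43) lost its call without probe sets of suffix x_at or s_at.

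In the mitosis lists, part of the genes fell and part were not called, and the falls were below 1 on the log2 scale. Of 25 measured kinesins and spindle proteins 15 fell and 0 rose (beside 9.60% of all genes), with a median change of −0.36. Of 19 mitotic kinases, cyclins and phosphatases 10 fell and 1 rose, and of 27 centromere and kinetochore genes 10 fell and 0 rose. TTK, a kinase of the spindle checkpoint, lay at 9.83, 9.71 and 9.60 on the untreated arrays and at 8.99, 9.04 and 8.68 on the treated arrays (−0.81 ± 0.10, adjusted p = 0.000372). PLK1, which drives entry into mitosis, lay at 6.97, 7.04 and 7.05 on the untreated arrays and at 6.55, 5.89 and 6.24 on the treated arrays, so the treated arrays spread more widely than the untreated ones but did not reach them (−0.79 ± 0.14, adjusted p = 0.00333). BUB1 and BUB1B of the same checkpoint fell by 0.76 and 0.59, and the spindle kinase AURKA by 0.53. CCNB1, the mitotic cyclin B1, fell by 0.46, while its kinase CDK1 (−0.20) and AURKB (−0.15) were not called. ECT2 and RACGAP1, which place the cleavage furrow, fell by 0.71 and 0.62. The kinesins KIF23 and KIF20A, which act there too, each fell by 0.57. At the kinetochore CENPC and NDC80 fell by 0.67 and 0.65. WEE1, the kinase that restrains CDK1, rose. It lay at 10.73, 10.74 and 10.78 on the untreated arrays and at 11.52, 11.73 and 11.50 on the treated arrays (0.83 ± 0.08, adjusted p = 3.47e-05, 2 of 2 probe sets higher). Without probe sets of suffix x_at or s_at, 6 of 15 mitotic kinases fell. AURKA (0.03, turned in sign), CCNB1 (−0.23) and ECT2 (−0.02) lost their call without probe sets of suffix x_at or s_at. In the probe set checks the log2 change was as small as −0.33 for BUB1, whose weakest single probe set was at −0.06 (2 of 5 called lower).

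A known promoter element of mitotic genes was then looked for. The cell cycle genes homology region (CHR, the letters TTTGAA on either strand) is bound by the DREAM complex and by its activating counterpart with B-MYB, often beside a CCAAT box of NF-Y. It was present in 18 of 23 kinesin and spindle promoters (78.3%), 9 of 23 kinetochore promoters (39.1%) and 5 of 14 mitotic kinase promoters (35.7%), against 11.9% of 15382 tested genes and 15.4% of all promoters in the table. In other lists it was present in 4 of 10 promoters of p53 regulators, a list in which 0 genes fell, and in 0 of 29 of replication genes. Fallen genes as a whole held it in 12.9% of 1578 promoters and risen genes in 10.3% of 857. Over the mitosis lists, 19 of the 32 genes with the element fell and 10 of the 28 without it. The 13 with the element that were not called include KIF11, CDK1, ASPM and CENPN. CCAAT, also sought on both strands, was present in 73.9%, 60.9% and 71.4% of the same mitosis promoters, against 58.6% of the replication promoters and 36.1% of tested genes. Windows of 60 bases are shown for 9 fallen genes of the 3 lists and for KIF11 and CENPN, which were not called, several of them chosen after their values were seen, with the CHR in capitals (TTCAAA where it lies on the other strand). BUB1 carries the variant TTCGAA. The windows are PLK1 at chr16:23678833-23678892 (plus strand), BUB1 at chr2:110678034-110678093 (minus strand), BUB1B at chr15:40161019-40161078 (plus strand), CENPA at chr2:26786011-26786070 (plus strand), KIF23 at chr15:69414267-69414326 (plus strand), PRC1 at chr15:90994523-90994582 (minus strand), HMMR at chr5:163460583-163460642 (plus strand), KIF4A at chrX:70290043-70290102 (plus strand), CCNB2 at chr15:59105090-59105149 (plus strand), KIF11 at chr10:92593075-92593134 (plus strand) and CENPN at chr16:81007184-81007243 (plus strand).
PLK1: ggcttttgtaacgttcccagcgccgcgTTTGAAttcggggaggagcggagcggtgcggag
BUB1: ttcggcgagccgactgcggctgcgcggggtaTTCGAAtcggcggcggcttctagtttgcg
BUB1B: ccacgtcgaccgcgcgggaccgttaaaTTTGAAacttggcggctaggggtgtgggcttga
CENPA: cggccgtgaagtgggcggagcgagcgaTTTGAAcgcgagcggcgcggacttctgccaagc
KIF23: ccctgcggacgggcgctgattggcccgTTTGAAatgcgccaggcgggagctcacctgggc
PRC1: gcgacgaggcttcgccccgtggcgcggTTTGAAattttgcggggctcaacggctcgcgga
HMMR: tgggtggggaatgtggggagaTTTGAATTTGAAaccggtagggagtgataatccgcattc
KIF4A: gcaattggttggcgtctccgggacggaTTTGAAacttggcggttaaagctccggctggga
CCNB2: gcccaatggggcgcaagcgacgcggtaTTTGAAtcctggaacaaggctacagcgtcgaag
KIF11: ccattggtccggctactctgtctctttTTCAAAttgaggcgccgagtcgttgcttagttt
CENPN: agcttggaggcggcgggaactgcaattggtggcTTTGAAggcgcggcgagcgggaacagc
The corresponding log2 changes were −0.79 for PLK1, −0.76 for BUB1, −0.59 for BUB1B, −0.55 for CENPA, −0.57 for KIF23, −0.54 for PRC1, −0.51 for HMMR, −0.36 for KIF4A and −0.30 for CCNB2. Each of these 9 lay below the untreated mean on all 3 treated arrays. KIF11 was at −0.25 and CENPN at 0.18. CCNB2 lost its call with the mean of all probe sets (−0.05) and without the second untreated array (−0.27).

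The element lay near the start in many of these promoters. Either form of the CHR began within 50 bases before the start in 9 of the 60 mitosis promoters for each of the bins from 50 to 26 and from 25 to 1 bases before it, and in 13 (21.7%) from 0 to 24 bases after it. The same bins gave 1.16%, 0.891% and 1.04% of all tested genes. Calls were then counted over all tested genes with a promoter, the mitosis genes included. Among genes above the median untreated level, 29.8% of the 131 with a CHR near the start and a CCAAT box fell. The share was 20.0% of the 135 with the CHR alone, 17.3% of the 2957 with CCAAT alone, and 16.8% of the 4987 with neither. The start listed first was used for the 3914 genes with several.

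**Figure D4:**
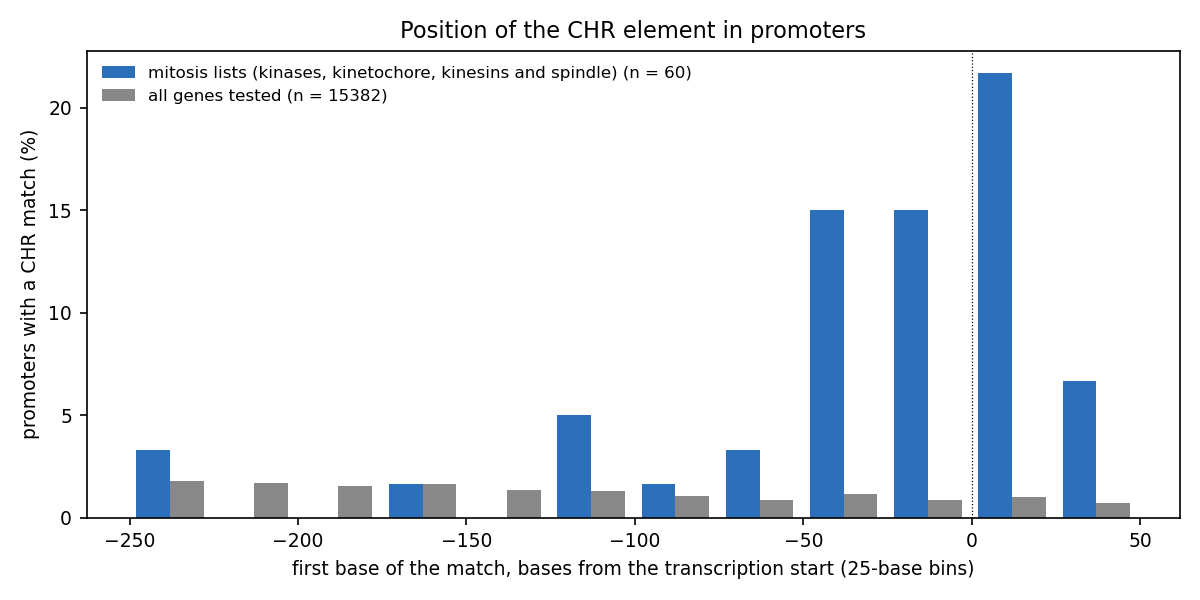
Percent of promoters in which a CHR match (both forms, either strand) begins in each bin of 25 bases, by distance from the transcription start, for 60 promoters of the mitosis lists in blue and 15382 tested genes in grey. The blue bars are highest from 50 bases before to 24 after the start (9, 9 and 13 of 60), where grey bars lie near 1%.

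Some genes of chromosome cohesion and of the damage checkpoint fell, and most were not called. Of 23 measured cohesin and condensin genes 9 fell (39.1%) and 0 rose (median −0.24). Of 22 damage-sensing and checkpoint genes 7 fell (31.8%, beside 9.60% of all genes) and 0 rose (median −0.21). RAD21, the cohesin subunit cut at anaphase, lay at 11.38, 11.20 and 11.02 on the untreated arrays and at 10.53, 10.53 and 10.42 on the treated arrays (−0.71 ± 0.09, adjusted p = 0.000515, 2 of 2 probe sets lower). The first untreated array was the highest and the third the lowest, above every treated array. SGO2, which protects cohesin, fell by 0.61. Of 18 genes of the anaphase-promoting complex and its partners 4 fell. FBXO5, its inhibitor EMI1, fell by 0.78 with 2 of 2 probe sets, and its activator CDC20 by 0.40. ETAA1 and ATR, both of the pathway that senses single-stranded DNA, fell by 0.66 and 0.57, RAD17, which loads the checkpoint clamp, by 0.55, and CHEK2 by 0.45. ATM (−0.02), PRKDC (−0.07), CHEK1 (−0.20) and TP53BP1 (−0.04) were not called. Without probe sets of suffix x_at or s_at, 5 of 19 cohesin and condensin genes and 3 of 16 checkpoint genes fell. The probe set checks gave log2 changes down to −0.28 for ATR and −0.36 for RAD17.

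Other repair pathways moved both ways. Of 23 genes of homologous recombination and Fanconi anaemia 1 rose and 5 fell, and of 31 genes of other repair pathways 5 rose and 4 fell, the risen ones including POLH, DDB2 and XPC given above. FANCE fell by 0.50, FANCL by 0.46, and the mismatch repair gene MSH6 and the end-joining gene XRCC4 by 0.47 each. BRCA1 (−0.08), PALB2 (−0.15) and BLM (−0.05) were not called. TOP2A and TOP2B, the targets of doxorubicin, were at −0.25 and −0.26, neither called, and TOP1 rose by 0.37. Of 32 measured replication genes 5 fell (15.6%, beside 9.60% of all genes) and 1, PCNA at 0.35, rose. CDT1, which loads the replicative helicase, fell by 0.54 and the helicase subunit MCM6 by 0.51, and CDC6 (−0.14) and ORC1 (−0.37) were not called. In the G1 network 3 of 26 measured genes rose and 7 fell. E2F7, a repressive E2F and p53 target, lay at 8.49, 8.40 and 8.23 on the untreated arrays and at 9.73, 9.78 and 9.76 on the treated arrays (1.38 ± 0.08, adjusted p = 8.75e-07), and its partner E2F8 fell by 0.49. The kinase inhibitor CDKN1B, p27, lay at 9.35, 9.44 and 9.06 on the untreated arrays and at 8.42, 8.46 and 8.31 on the treated arrays (−0.89 ± 0.10, adjusted p = 0.000193), opposite to its relative CDKN1A. The 7 fallen genes became 3 with the mean of all probe sets and 4 of 22 without those of suffix x_at or s_at. PCNA (0.32) lost its call without the second treated array. The smallest log2 change in the probe set checks was −0.21 for MSH6 and 0.74 for E2F7. The weaker of the 2 probe sets of E2F7 was at 0.11 and not called.

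Some enzymes of chromatin fell, and most were not called. Of 37 measured genes of histone methylation 12 fell (32.4%) and 2 rose (median −0.17). Of 34 remodelling and acetylation genes 8 fell (23.5%) and 1 rose (median −0.06). Over all genes 9.60% fell, and 18.9% and 17.7% in the 2 groups of highest untreated level. KMT2E fell by 0.56 with 3 of 3 probe sets, and NSD3 and SETDB1, which methylate histone H3, by 0.49 each. The demethylase gene KDM6A rose by 0.72. EZH2, the Polycomb methyltransferase, was at −0.06 and not called. SMARCA2, the BRM helicase of the SWI/SNF remodeller, fell by 1.13 on 3 of its 7 probe sets and was at 0.09 without probe sets of suffix x_at or s_at. ARID2 fell by 0.83, while the SWI/SNF helicase SMARCA4 was at −0.10 and not called. The acetyltransferase gene KAT2B rose by 0.73. These counts rest on few arrays. The histone methylation count was 7 without the second untreated array or without the third treated array, and the remodelling count was 5 without the first untreated array, 4 without the second and 5 without the third treated array. Without probe sets of suffix x_at or s_at the counts were 6 of 30 and 4 of 27. Averaging all probe sets of a gene left a remodelling count of 4. SETDB1 (−0.24) lost its call with the mean of all probe sets. KDM6A (0.31) and SMARCA2 (0.09, turned in sign) lost their call without probe sets of suffix x_at or s_at. In the probe set checks the log2 change was as small as −0.29 for NSD3.

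Much of the housekeeping machinery did not pass the test. None of 27 measured proteasome genes was called by limma (1 at an unadjusted p under 0.05, range −0.16 to 0.14), and of 33 genes of respiratory complex I 1 fell (NDUFV2, −0.31). Of 36 splicing factors 2 rose and 2 fell, with SRSF4 at −0.52 and the kinase CLK1 at 0.56. Of 31 genes of RNA polymerase I and ribosome biogenesis 2 rose and 2 fell, with changes from −0.36 to 0.32. Of 47 genes of RNA polymerase II and its cofactors 3 rose and 7 fell (14.9%, beside 9.60% of all genes). CDK9 and CCNT2, which form the elongation kinase P-TEFb, fell by 0.48 and 0.47, and HEXIM1, which restrains that kinase, rose by 0.49. POLR2A was at 0.06 and not called. Stress pathways other than p53 moved in part: of 18 genes of the integrated stress and unfolded protein responses 5 rose and 2 fell, with DDIT3 at 0.64, while ATF4 (−0.11), TRIB3 (−0.03) and HSPA5 (0.08) were not called. CLK1 lost its call without the third untreated array (0.48) and without the second treated array (0.52). SRSF4 (−0.04) and CDK9 (−0.26) lost their call with the mean of all probe sets. HEXIM1 (0.04) lost its call without probe sets of suffix x_at or s_at.

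Stem cell identity genes fell in part. Of 22 measured pluripotency genes 8 fell and 1 rose (median −0.19). ZIC2, a transcription factor of primed stem cells, lay at 11.68, 11.74 and 11.75 on the untreated arrays and at 10.55, 10.52 and 10.48 on the treated arrays (−1.21 ± 0.09, adjusted p = 4.83e-06). FOXD3 fell by 1.12, the growth factor gene FGF4 by 0.85 and the telomerase gene TERT by 0.62. SOX2 lay at 12.32, 12.36 and 12.29 on the untreated arrays and at 11.85, 12.004 and 11.74 on the treated arrays (−0.46 ± 0.08, adjusted p = 0.00241, 3 of 4 probe sets lower). NANOG lay at 11.25, 11.24 and 11.43 on the untreated arrays and at 11.05, 11.28 and 11.13 on the treated arrays and was not called (−0.15 ± 0.08, adjusted p = 0.271). LIN28A (−0.09), DNMT3B (−0.08) and SALL4 (−0.20) were not called either, and FGF2 rose by 0.90. In the NOTCH and WNT list 6 of 30 rose and 7 fell. The NOTCH target HES1 lay at 7.47, 7.73 and 7.18 on the untreated arrays and at 9.18, 9.19 and 9.38 on the treated arrays (1.79 ± 0.14, adjusted p = 8.94e-06), and the receptor gene NOTCH1 and the ligand gene JAG1 rose by 1.22 and 0.86. HEY2, another NOTCH target, fell by 0.87 and the ligand gene DLL1 by 0.90. In the circadian list BHLHE40, a repressor of clock genes, lay at 4.77, 4.96 and 4.04 on the untreated arrays and at 8.57, 8.84 and 8.62 on the treated arrays (4.09 ± 0.19, adjusted p = 1.94e-07). Of 16 measured members 2 rose and 5 fell, among them CIART by 0.86 and RORA by 1.27. Without either the first or the second untreated array, or the second or the third treated array, the number that fell was 3. HES1 (0.12) lost its call without probe sets of suffix x_at or s_at. The probe set checks gave log2 changes down to −0.53 for FOXD3, −0.37 for FGF4, −0.39 for TERT, 0.70 for NOTCH1, −0.45 for DLL1, 2.21 for BHLHE40 and −0.36 for RORA. The weakest single probe set was at −0.09 for FOXD3 (1 of 3 called lower), 0.11 for FGF4 (1 of 2) and −0.01 for DLL1 (1 of 2). For BHLHE40 it was at 0.33 (2 of 2 called higher).

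The 15 lowest genes included few cell cycle genes. NPTX1, a secreted pentraxin of neurons, lay at 8.48, 8.41 and 7.91 on the untreated arrays and at 6.22, 6.28 and 6.16 on the treated arrays (−2.05 ± 0.13, adjusted p = 1.74e-06), the only fall of more than 4-fold. TOX3, a chromatin factor, lay at 9.78, 9.84 and 9.78 on the untreated arrays and at 8.13, 7.87 and 8.08 on the treated arrays (−1.77 ± 0.10, adjusted p = 7.17e-07). OPN3, an opsin, lay at 7.65, 7.70 and 7.27 on the untreated arrays and at 5.85, 5.70 and 5.70 on the treated arrays (−1.79 ± 0.11, adjusted p = 2.36e-06). The untreated arrays of NPTX1 and OPN3 spread more than those of TOX3, with the third array lowest, and in all 3 genes every treated array lay below every untreated one. SLC1A1, a glutamate transporter, fell by 1.73, SHISA2, an inhibitor of WNT and FGF receptors, by 1.61, and GADD45G by 1.78, opposite to GADD45A. Of the fallen genes with several probe sets, OPN3 had the largest agreed change, followed by HCG11 (−0.82), PLPP3 (−0.79), WIPI1 (−0.78) and VWDE (−0.95) in the order of their weaker probe set (the changes given are those of the kept one). Treated cells were also set directly against the cells under retinoic acid, a contrast in which 4201 genes were called (21.2%). The differences (doxorubicin minus retinoic acid) were 0.00 ± 0.09, adjusted p = 0.993 for SHISA2, 0.10 ± 0.14, adjusted p = 0.672 for LRAT, which stores retinol, 0.19 ± 0.10, adjusted p = 0.211 for TOX3 and −0.17 ± 0.17, adjusted p = 0.53 for GADD45G, none of them called. OPN3 (−1.82 ± 0.11, adjusted p = 1.27e-06) and HEY2 (−1.37 ± 0.09, adjusted p = 2.56e-06) were lower after doxorubicin. Among risen genes EGR1 (5.14 ± 0.16, adjusted p = 6.03e-09) and DUSP6 (3.65 ± 0.19, adjusted p = 2.79e-07) were far higher after doxorubicin than under retinoic acid. Part of each difference lay in the retinoic acid arrays, with mean levels of 6.44 for EGR1 and 5.60 for DUSP6. Their untreated means were 8.77 and 7.87. HAS2, which makes hyaluronan and rose by 1.76 over untreated cells, was lower after doxorubicin than under retinoic acid (−3.08 ± 0.11, adjusted p = 1.41e-08). HCG11 lost its call without the first untreated array (−0.76) and without the second untreated array (−0.81). The smallest log2 change in the probe set checks was −0.81 for SLC1A1.

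Length of the gene went with falling. Genes were divided into 5 equal groups by their genomic span in RefSeq, from a median of 3.30 kb in the shortest group upward. The share that fell was 6.71%, 7.32%, 8.77%, 11.9% and 13.4% from the shortest to the longest group, while the share that rose stayed between 5.32% and 6.06%. The median change went from 0.016 to −0.027. Longer genes also differ in level, so the division was repeated within genes above the median untreated level. There the shares that fell were 15.6% in the shortest and 13.3% in the next group, and 19.6% and 21.6% in the 2 longest, and the median changes −0.058 and −0.113 in the shortest and the longest group. The Spearman correlation between span and change was −0.097 over 19731 genes and −0.091 over the 9882 above the median level. It is a weak relation across genes, which share the same arrays. Genes that rose at least 2-fold had a median span of 18.7 kb and those that fell at least 2-fold 46.6 kb, beside 24.7 kb for all genes.

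**Figure D5:**
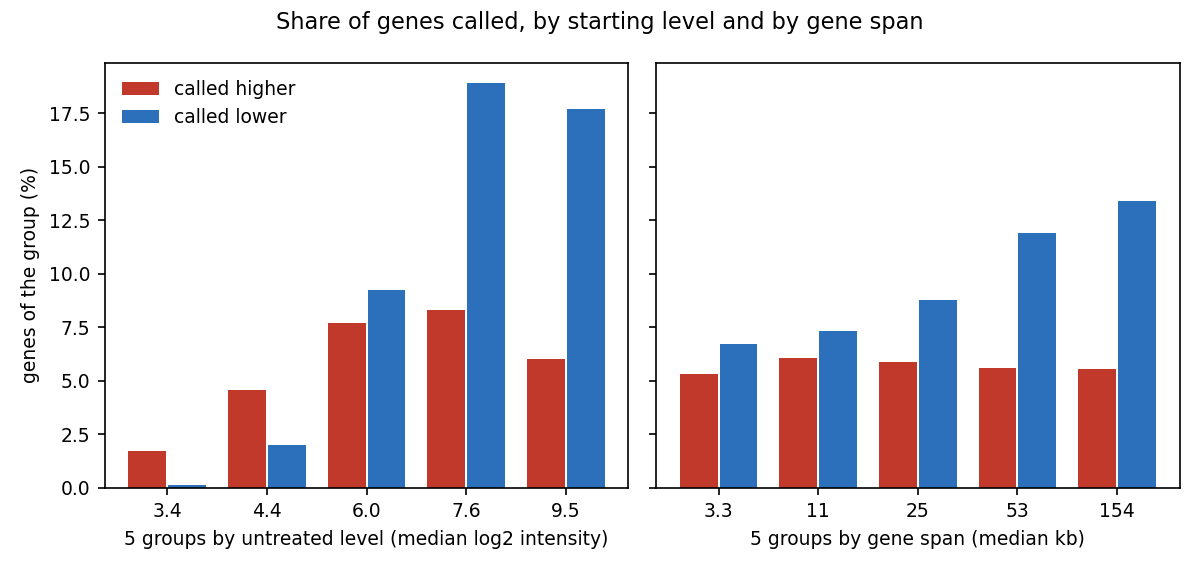
Percent of genes called higher (red) and lower (blue) in each of 5 equal groups by mean untreated level (left, labelled with the group's median log2 intensity) and by gene span (right, labelled with its median in kb). Blue bars go from 0.152% to 17.7% with level and from 6.71% to 13.4% with span, and red bars stay at or below 8.29%.

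Many genes are read by several probe sets, which gives a check inside the array. Of 710 risen genes with several, 128 had all of them called higher when each was tested alone, and in 428 (60.3%) at most 1 was. Of 159 that rose at least 2-fold, 50 (31.4%) had all called higher. Of 1263 fallen genes with several probe sets 117 (9.26%) had all called lower, and in 927 (73.4%) at most 1 was. Opposite calls occurred in 4 risen and 6 fallen genes. Probe sets read different ends or transcripts of a gene, and the kept one was the brightest. The risen genes whose weakest probe set moved most were PLAU, EGR1, CCN1, GREM1 and ENC1, an actin-binding adaptor that rose by 2.44 (2.44 ± 0.11, adjusted p = 1.74e-07). RNA45SN5, a precursor of ribosomal RNA, rose by 2.23 on 2 of 2 probe sets, but its copies cannot be told apart by these probes. COL7A1, the collagen of anchoring fibrils, rose by 1.80 and the metallothionein gene MT1E by 1.73, the latter one of a family of near-identical genes. Counted without reduction to genes, 4021 of 41091 probe sets were called (9.79%).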

How the data were processed

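RNA of WA09 cells was measured on 1-colour Affymetrix arrays, 3 each from untreated cells, cells given doxorubicin for 5 h and cells under retinoic acid. Values are RMA log2 intensities deposited by the authors, made with the package affy per the submitters' processing notes (software versions: not given in the sources used here). As background, RMA corrects background, gives all arrays one distribution and summarises probes, so a shift shared by most genes would be removed.

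Of 54675 probe sets, 62 controls were left out. The platform annotation named 1 gene for 41091, several for 1801 and none for 11721. By Entrez identifier, 41037 of those with 1 gene matched RefSeq (GRCh38.p14), and 0 symbols were updated. Each of 19777 genes was represented by its brightest probe set on average across the arrays, and 10523 genes had several.

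A model of the 3 groups was fitted with limma 3.58.1 (R 4.3.3, lmFit and eBayes) on 9 arrays, which left 6 residual degrees of freedom plus 4.63 from the prior. Dim genes were kept, and calls required an adjusted p (Benjamini-Hochberg) under 0.05. On simulated data over 19777 genes the fit recovered 78.8% of changes of 0.5 on the log2 scale and 100% of changes of 1 and 2. Lists were described by counts and medians, with no test of a list, and promoters were matched by Entrez identifier for 15382 genes. The number of arrays limits the precision.

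Genes named by rule were the 15 highest and 15 lowest called genes whose groups do not overlap, the 15 each way among genes whose several probe sets were all called alike (ranked by the weakest), up to 5 called members of each list with the largest change, defining markers, and a fixed set of p53 targets, immediate-early, mitotic and pluripotency genes. The members and lists were chosen with earlier results of these data known. Alternatives were other choices of probe set, a filter on low values, other scalings and models, 1 array left out, and the replicate number as a block.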

Additional observations from a re-analysis of the deposited data

Results flagged for a closer look

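Probe sets that name no gene or several genes took no part in the comparisons above, and some of them were higher on the treated arrays than on the untreated control arrays. Of 11721 that name no gene, 118 were higher and 124 lower (limma, Benjamini-Hochberg adjusted over both kinds together), 2.06% in all. At least 2-fold, 37 were higher and 11 lower. Of 1801 that name several genes, 60 were higher and 47 lower, 5.94% in all, and at least 2-fold 19 were higher and 1 lower. Groups of 3 arrays were not tested for outlying arrays.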

How the results depend on the processing

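Across the alternatives that kept all compared arrays and 1 value per gene, 814 to 1253 genes rose (1121 as reported) and 1360 to 2289 fell (1898 as reported). Testing every probe set alone called 1588 probe sets higher and 2433 lower. With 1 array left out 871 to 1143 rose and 1129 to 2208 fell. Without probe sets of suffix x_at or s_at, which leaves fewer genes to measure, the count that rose was 6 of 8 for p53 arrest, 4 of 10 for p53 metabolism, 5 of 13 for EGR, NR4A and KLF factors, 5 of 9 for early-response and decay genes, 14 of 17 for SRF and YAP targets, 6 of 13 for proteolysis and 5 of 16 for BMP. The count that fell was 6 of 15 for mitotic kinases, 5 of 19 for cohesin and condensin, 3 of 16 for checkpoint genes, 4 of 22 for the G1 network, 6 of 30 for histone methylation and 4 of 27 for remodelling. With the mean of all probe sets the G1 network gave 3 and remodelling 4. With 1 array left out the counts that fell were 7 to 12 for histone methylation, 4 to 7 for remodelling and 3 to 7 for the circadian list.

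Without probe sets of suffix x_at or s_at the change turned in sign, with no call, for BTG3 (−0.076), LDB2 (0.007), PER3 (0.092), SMARCA2 (0.088) and AURKA (0.034), each then read by another probe set. The median change of the shortest genes (0.016) was −0.051 among genes above the median level, and that of the longest (−0.027) was −0.106. With 1 array left out they ran from 0.001 to 0.033 and from −0.041 to −0.019.

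The replicate numbers were not taken to pair the arrays, since deviations of same-numbered arrays correlated at 0.13, 0.037 and 0.151. With the replicate block 1147 genes rose and 1934 fell. A further quantile normalization gave 1250 and 1646, and centring each array 1253 and 1697. The median change over all genes was −0.00833 and 0.0212 under these scalings, beside −0.00469.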

Other observations

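Gene families formed from symbol roots, chosen with the values in view, add groups not described above. Of 77 mitochondrial ribosomal protein genes (MRPL and MRPS), 5 rose and 17 fell (22.1%, beside 9.60% of all genes), with a median change of −0.08. By contrast, of 58 genes with the roots RPL and RPS, mostly of the cytoplasmic ribosome, 1 rose and 0 fell (limma, adjusted p under 0.05, and 0 fell at an unadjusted p under 0.05). The risen one was RPS27L, given above among the p53 targets. Of 53 USP genes, which encode deubiquitinases, 4 rose and 13 fell (24.5%), and of 59 TRIM genes 5 rose and 13 fell. Of 502 zinc finger genes with the root ZNF 27 rose and 56 fell (11.2%). These families were not matched by level, and in the 2 groups of highest untreated level 18.9% and 17.7% of genes fell. Of 29 HOX genes 3 rose and 0 fell (7 and 0 at an unadjusted p under 0.05), with a median of 0.14.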
